A study of Mus musculus with 2 samples.

Results

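The SLAM family comprises immune receptors of the immunoglobulin superfamily that leukocytes use to recognise one another. Its 9 receptor genes, Cd48, Slamf1, Ly9, Cd84, Cd244a (formerly Cd244), Slamf6, Slamf7, Slamf8 and Slamf9, and the adaptor gene Sh2d1b1 were followed here in bone marrow neutrophils of mice labelled Jdp2 knockout and Jdp2 wild type. These 10 genes were chosen by the measured difference between the arrays, since the neighbours Cd48 and Slamf1 had both been seen to be 2-fold higher on the array labelled knockout, so the differences of the family on these arrays are a description and carry no test. Every probe set annotated to 1 of the 10 genes alone was taken, which gave 15 probe sets for 9 of the 10 genes out of 18193 genes named on the array. Sh2d1b1 had no probe set of its own.

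Cells had been sorted from bone marrow as CD11b-positive, Ly6G-positive cells with low Ly6C, and total RNA was hybridised to Affymetrix arrays. One group is labelled as a knockout of the transcription repressor Jdp2 and the other as wild type, and both are labelled as a mixed C57BL/6 and 129/J background, with no treatment. Each genotype was measured on 1 array, 2 in all. The sources used here give neither the age of the mice, nor their number per array, nor the deleted part of Jdp2. C57BL/6 and 129 mice are known to carry different haplotypes of the SLAM gene cluster, and which haplotype the mice of each array carried was not analysed here. No spread between mice can be estimated, so differences carry no p-value, and precision is limited by the number of arrays. Values are log2 signals, and a difference is the value on the array labelled knockout minus that on the array labelled wild type, with 2-fold (a log2 difference of 1) as the size rule.

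The sorted cells carried neutrophil transcripts on both arrays. All 11 neutrophil markers with a probe set were above the array medians, which were 5.67 for the array labelled knockout and 5.65 for the array labelled wild type. The summed linear signal of these markers was 170166 and 169383. Ly6g had no probe set of its own in the annotation used. The targeted gene did not check the labels. The stronger Jdp2 probe set read 12.38 on the array labelled knockout and 12.00 on the array labelled wild type, and the probes may lie outside the deleted part. Every direction below therefore refers to the arrays as labelled.

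SLAM receptors bind one another across contacts between cells, most of them like to like. The exception is the pair of CD48 and CD244: CD48, a protein held on the membrane by a lipid anchor, is the ligand of CD244. Most of the receptors carry tyrosine motifs in their cytoplasmic tails, to which small SH2 adaptors of the SAP family bind. SAP itself, encoded by Sh2d1a, brings the kinase Fyn to the receptor, and where adaptors are lacking the same motifs can recruit the phosphatases encoded by Ptpn6, Ptpn11 and Inpp5d. In bone marrow the family is best known from the sorting of blood stem cells, which display CD150, the product of Slamf1, and lack CD48, and in phagocytes CD150 is known to bind bacterial outer membrane proteins.

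The family is a gene cluster on mouse chromosome 1, while Jdp2 lies on chromosome 12. Its order in the RefSeq gene table is Cd244a, Ly9, Slamf7, Cd48, Slamf1, Cd84 and Slamf6, with 1 other annotated protein-coding gene among the 7. The promoters of Cd48, Cd244a and Slamf1, which were all at least 2-fold higher, and of their neighbour Cd84, which differed little, are shown because Jdp2 is known to bind AP-1 and CRE sites. Each sequence is the 250 bases before the RefSeq start site in GRCm38.p6, all on the plus strand, from chr1:171681742-171681991 for Cd48, chr1:171558943-171559192 for Cd244a, chr1:171766882-171767131 for Slamf1 and chr1:171839447-171839696 for Cd84. Capitals mark matches, on either strand, to an AP-1 motif (TGANTCA), a CRE motif (TGACGTCA) or an ETS motif (AGGAAG), none of which contains another.
Cd48: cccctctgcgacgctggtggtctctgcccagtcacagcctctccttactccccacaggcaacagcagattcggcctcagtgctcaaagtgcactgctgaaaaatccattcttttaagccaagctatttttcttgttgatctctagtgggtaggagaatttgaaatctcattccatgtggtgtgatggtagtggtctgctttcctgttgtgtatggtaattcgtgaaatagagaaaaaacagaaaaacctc
Cd244a: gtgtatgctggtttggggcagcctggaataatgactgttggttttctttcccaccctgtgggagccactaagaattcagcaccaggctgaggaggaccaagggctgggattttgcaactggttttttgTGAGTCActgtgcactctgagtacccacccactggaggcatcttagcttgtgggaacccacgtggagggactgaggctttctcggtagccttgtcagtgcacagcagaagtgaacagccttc
Slamf1: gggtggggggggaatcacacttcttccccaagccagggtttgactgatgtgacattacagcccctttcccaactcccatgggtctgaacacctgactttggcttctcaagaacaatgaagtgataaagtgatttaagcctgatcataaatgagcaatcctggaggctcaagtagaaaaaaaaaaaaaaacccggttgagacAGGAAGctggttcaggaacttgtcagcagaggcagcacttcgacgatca
Cd84: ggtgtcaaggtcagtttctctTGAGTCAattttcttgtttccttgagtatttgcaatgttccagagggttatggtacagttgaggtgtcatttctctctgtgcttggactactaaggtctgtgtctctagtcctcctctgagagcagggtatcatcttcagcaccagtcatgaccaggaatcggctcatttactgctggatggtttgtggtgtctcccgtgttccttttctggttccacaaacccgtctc

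Cd244a and Cd84 each held 1 AP-1 match, TGAGTCA, starting at position -122 and at position -229 from the start site. Slamf1 held 1 ETS match at -49, and Cd48 held none of the 3 motifs in this window. Among the 9 of the 10 genes with a promoter in the table, 4 held an AP-1 match (Cd84, Cd244a, Slamf7 and Sh2d1b1), 3 held an ETS match and 0 held the full CRE. Of all 32851 promoter windows of the same length, 6.75% held the AP-1 motif, 29.5% the ETS motif and 1.55% the CRE. A match is a run of letters, and binding was not measured. The genes with an AP-1 match included one that was at least 2-fold higher, Cd244a, and others with small differences, Cd84 and Slamf7.

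Of the 9 receptor genes, 7 passed the level filter, which required the higher of the gene's 2 values to reach the median of its array. Of these 7, 3 were higher on the array labelled knockout by 2-fold or more and 0 were lower by as much. The background over all 11168 genes that passed was 3.06% higher and 2.33% lower. The median difference was 0.81 over the 7 receptors that passed and 0.08 over all 9, against -0.04 for all genes that passed. Cd48 and Slamf1 passed only through their values on the array labelled knockout. With the filter on both values the median was 0.45. Because the same contrast chose the family, nothing is read from this count or from these medians. The 4 highest differences, from 0.81 to 1.98, belonged to Cd48, Cd244a, Slamf1 and Ly9, and the other 5 lay between -0.75 and 0.08. That of Slamf1 was seen on 1 of its 3 probe sets.

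**Figure D1:**
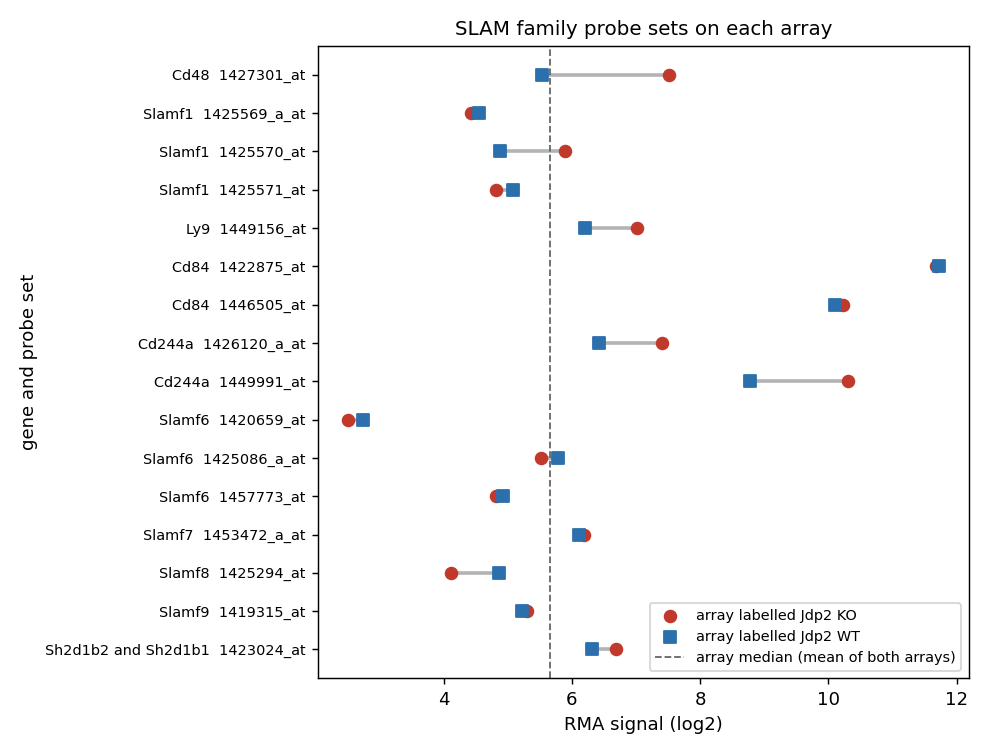
Log2 signal of every probe set annotated to the family on the array labelled knockout (red circles) and the array labelled wild type (blue squares), with 1 array per group and no error bars. The dashed line is the mean of both array medians. Cd48 spans from 5.53 to 7.51 and both Cd244a probe sets lie to the right on the array labelled knockout, while the Cd84 probe sets nearly coincide and 2 of the 3 Slamf1 probe sets stay left of the line.

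The ligand gene Cd48 differed most. Its single probe set (1427301_at) read 7.51 on the array labelled knockout and 5.53 on the array labelled wild type, which is a difference of 1.98 or 3.95-fold. The value of the array labelled wild type lay just under that array's median, so the transcript was weak there, and raising that value to the median gave 3.63-fold. Among the 11168 genes that passed, this difference ranked 23 from the highest.

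Cd244a, which encodes the receptor for CD48, was higher on the same array. Its stronger probe set (1449991_at) read 10.31 on the array labelled knockout and 8.78 on the array labelled wild type, which is a difference of 1.52 or 2.88-fold. The second probe set (1426120_a_at) read 7.40 and 6.42, a difference of 0.98, just short of 2-fold. All 4 values lay above the array medians and both probe sets pointed the same way, with a mean difference of 1.25 and an SD of 0.38 between the 2 probe sets. This SD comes from probe sets that read the same RNA and does not measure the spread between mice. Cd244a ranked 84 from the highest. Ligand and receptor genes were thus both higher on the array labelled knockout, at the level of RNA, since the surface proteins were not measured.

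Slamf1, which encodes the stem cell marker CD150, passed the size rule on 1 of its 3 probe sets. The probe set 1425570_at read 5.90 on the array labelled knockout and 4.88 on the array labelled wild type, which is a difference of 1.02 or 2.03-fold. The other 2 probe sets went the other way: 1425569_a_at read 4.43 and 4.55, a difference of -0.13, and 1425571_at read 4.81 and 5.08, a difference of -0.26. The platform annotation gave 1 distinct source accession for these 3 probe sets, with missing entries not counted. Of the 6 values, only the one of 1425570_at on the array labelled knockout exceeded an array median, and only just. The mean difference over the 3 probe sets was 0.21 with an SD of 0.70, and with the lower value of 1425570_at raised to the median the difference came to 1.19-fold. The 2-fold difference of Slamf1 thus rests on 1 weak probe set that the others did not share, and RMA gives no detection call for any of them.

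Ly9, which encodes the self-binding receptor CD229, was the receptor next below the size rule, as Slamf1 was the one next above it. Its probe set (1449156_at) read 7.01 on the array labelled knockout and 6.20 on the array labelled wild type, both above the median. The difference was 0.81, or 1.75-fold, and ranked 555 from the highest.

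Cd84 encodes a self-binding receptor of myeloid cells and platelets, and it was abundant and nearly equal on both arrays. The probe set 1422875_at read 11.68 on the array labelled knockout and 11.72 on the array labelled wild type, which is a difference of -0.04. The probe set 1446505_at read 10.23 and 10.10, a difference of 0.13. The folds were 1.03 and 1.09, and all 4 values lay at or above percentile 88.9 of their array.

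The remaining receptors were weak and differed little or stayed under the level filter. Slamf7, which encodes a self-binding receptor known from NK and plasma cells, read 6.19 and 6.11, a difference of 0.08. Slamf6, which encodes the lymphocyte receptor Ly108, read 5.52 on the array labelled knockout and 5.79 on the array labelled wild type on its strongest probe set (1425086_a_at), a difference of -0.28. Its other probe sets, which did not pass, differed by -0.11 and -0.23. All 3 pointed the same way, but only the value of 1425086_a_at on the array labelled wild type exceeded an array median. Nothing is therefore read from the agreement of the Slamf6 probe sets. Slamf8 and Slamf9, the members with short cytoplasmic tails, did not pass. Slamf8 read 4.12 and 4.87, a difference of -0.75, and Slamf9 read 5.30 and 5.22, a difference of 0.07. All 4 of these values lay under the array medians, where signal and background cannot be separated without a detection call.

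**Figure D2:**
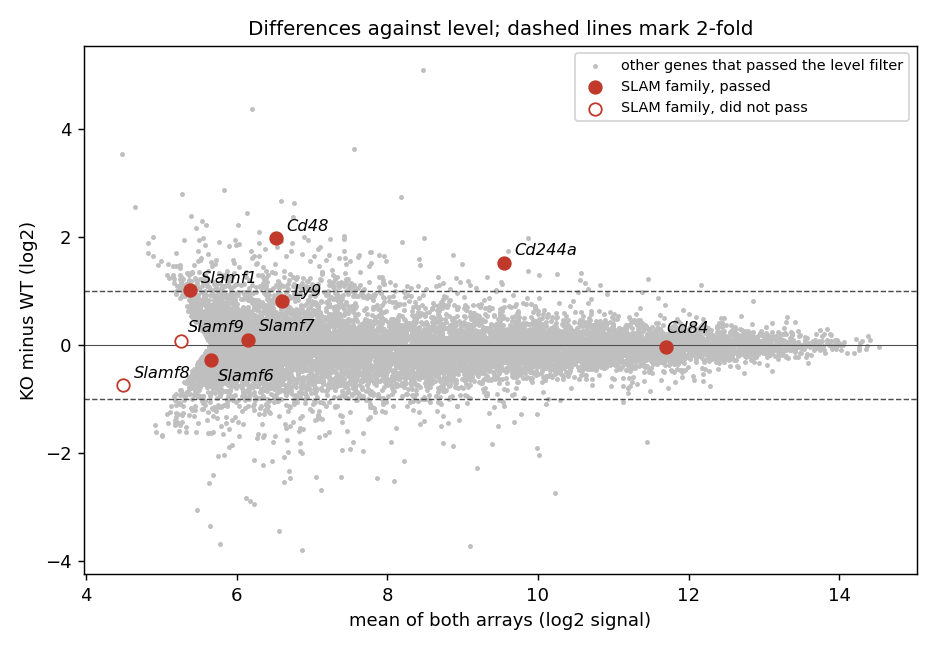
Difference between the arrays (log2, labelled knockout minus labelled wild type) against the mean log2 signal of both arrays for the 11168 genes that passed the level filter (grey) and the 9 receptor genes (red, open where they did not pass). Cd48 at 1.98 and Cd244a at 1.52 lie above the upper 2-fold line, Slamf1 at 1.02 lies on it in the weak range where many genes scatter, and Cd84 lies near 0 at high signal.

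The adaptors of the family were represented by 2 probe sets. Sh2d1a, encoding SAP, read 7.92 on the array labelled knockout and 6.77 on the array labelled wild type, which is a difference of 1.14 or 2.21-fold on 1 probe set (1449393_at), with both values above the medians. The probe set 1423024_at is annotated to both Sh2d1b1 and its near-identical neighbour Sh2d1b2, which encode EAT-2 and a second adaptor of that kind. It read 6.69 and 6.32, a difference of 0.37, and was assigned to neither gene.

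Of the 25 signalling partners listed for the receptors, 21 had a probe set of their own and 18 passed the filter. Of these 18, 1 was at least 2-fold higher, 0 were at least 2-fold lower, and 5 had a difference above 0, against 44.8% of all genes that passed. The 1 gene was Fyn, the kinase that SAP brings to the receptors. Its stronger probe set (1448765_at) read 7.89 on the array labelled knockout and 5.89 on the array labelled wild type, which is a difference of 1.995 or 3.99-fold. Its second probe set (1417558_at) read 5.66 and 4.94, a difference of 0.71, with both values under the array medians. Fyn and Sh2d1a thus differed in the same direction as Cd48 and Cd244a.

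The phosphatases that can bind the same receptor motifs were abundant and nearly equal. Ptpn6, encoding SHP-1, read 12.03 and 12.20, a difference of -0.16. Inpp5d, encoding SHIP-1, read 11.63 and 11.67, a difference of -0.04, and Ptpn11, encoding SHP-2, read 10.49 and 10.61, a difference of -0.11, although another of its probe sets differed by -0.92. The Src family kinase Fgr differed by -0.12. Among the other partners that passed the filter the largest differences belonged to Pik3r4, a subunit of the autophagy lipid kinase complex, at -0.55, the phospholipase Plcg1 at 0.40, and the adaptor Dok2 at -0.27. Beclin 1 and UVRAG, which CD150 is known to bind in macrophages, were represented by Becn1 at -0.12 and Uvrag at -0.19. The list's median difference was -0.11. Listed partners without a probe set of their own were not analysed here. Cd2, whose product also binds CD48 in mice, read 4.36 and 3.98, under both array medians, and did not pass. Cd2ap and Prkcq did not pass either, with differences of 0.58 and 0.47.

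None of the measured genes beside the cluster that passed the filter was as much higher as Cd244a or Cd48. For Slamf1 this held only on probe set 1425570_at, and its mean over 3 probe sets was 0.21. The neighbours Dcaf8 (0.47), Kcnj10 (0.57) and Pigm (0.24) were higher than that mean, and Atf6 (0.21) was level with it. These neighbours were read on their probe sets of highest mean only. Kcnj10 was under the median on the array labelled wild type, at 5.19. The window ran from 10 protein-coding genes before Sh2d1b1 to 10 after Slamf8 and held 77 genes outside the family, of which 37 passed the filter. Of these 37, 0 were at least 2-fold higher and 3 were at least 2-fold lower, with a median of -0.05 and a range from -1.34 to 0.57. Over all genes that passed, 3.06% were at least 2-fold higher and 2.33% lower. Because the same contrast chose the family, nothing is read from its standing above these neighbours. The 3 lower genes were Hsd17b7 (-1.34), Olfml2b (-1.27) and Pea15a (-1.25). Itln1, the next gene beyond Cd244a, differed by 0.02. Vangl2, the next gene beyond Slamf6, differed by 0.13 and did not pass. Within the cluster the higher genes were not adjacent throughout, since Slamf7, between Ly9 and Cd48, differed by 0.08. Several Fc receptor genes lie in the same window, and Fcgr2b (-0.03), Fcgr3 (-0.05) and Fcgr4 (0.18) were nearly equal on both arrays.

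**Figure D3:**
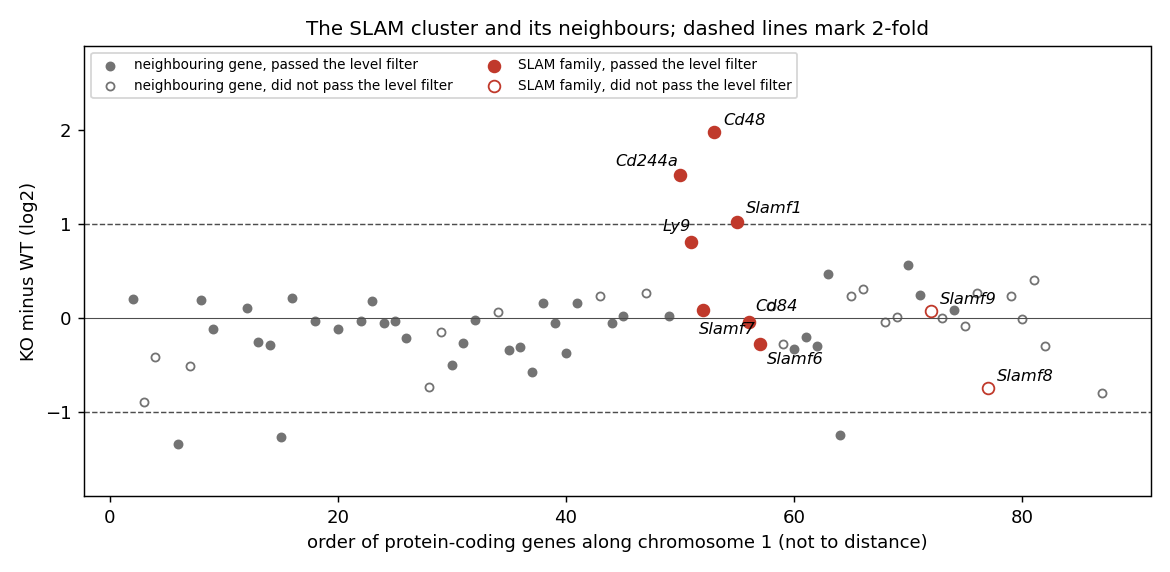
Difference between the arrays (log2) for protein-coding genes in their order along chromosome 1, not to distance, with family members in red and other genes in grey and open points for genes that did not pass the level filter. Cd244a, Ly9, Cd48 and Slamf1 stand between 0.81 and 1.98, above the 37 other genes that passed, whose highest value was 0.57. Slamf1 is drawn at its probe set 1425570_at (1.02), and its mean over 3 probe sets was 0.21. The family was chosen by the contrast that is drawn.

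Markers of other cell types also differed between the arrays, and their part in the differences of Cd48, Cd244a, Slamf1, Sh2d1a and Fyn was not tested. In bulk RNA more cells of another type and more RNA per cell cannot be told apart. Monocytes and macrophages also carry CD48 and CD244. Of 15 monocyte and macrophage markers that passed, 11 were at least 2-fold higher, with a median of 1.17. Over all genes that passed, 3.06% were at least 2-fold higher. The summed linear signal of the 16 markers with a probe set was 10718 on the array labelled knockout and 6666 on the array labelled wild type. Among the 11, Fcgr1, F13a1, Ms4a6c, C1qa and C1qc were under the median on the array labelled wild type. With that value raised to the median, F13a1 came to 3.25-fold and the rest of these to between 1.71 and 1.78-fold. The lowest probe sets of Fcgr1, Ms4a6c and Ccr2 differed by -0.47, 0.15 and -0.02. All 5 promyelocyte markers with a probe set were at least 2-fold higher, with a summed signal of 5550 against 1283. The macrophage marker Adgre1, at 9.95 and 8.70, differed by 1.25. Csf1r, at 11.76 and 11.48, and Cd68, at 10.58 and 10.35, were more abundant and differed by 0.27 and 0.23. Cx3cr1 differed by 0.25, and Mertk, at -0.59, was the 1 passed marker of this list below 0.

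Lymphocyte markers, listed because T and NK cells are the usual home of SAP, Fyn and CD244, differed less. Of 12 T and NK cell markers with a probe set, 5 passed and 0 reached 2-fold in either direction, with a median of 0.30 and a summed signal of 1709 against 1400. Cd2, Cd5, Cd3g, Ncr1, Gzma, Gzmb and Il2rb were under the median on both arrays, whereas Cd3d read 10.20 and 9.89, a difference of 0.30. Nkg7 read 7.63 and 6.93, above both medians, a difference of 0.70. The others that passed were Cd4 at 0.51, Cd3e at 0.25 and Cd8a at -0.66. Of 11 B and plasma cell markers with a probe set, 7 passed, with a median of 0.54. Of these 7, 5 were above 0 and 2 below, and 1, Igll1, was at least 2-fold higher. Igll1 was under the median on the array labelled wild type and came to 1.60-fold with that value raised to it. The summed signal of the 11 was 1631 against 1822. It included Ighm, at 8.85 and 9.78, whose probe sets differed by between -1.45 and 0.44. Of 11 dendritic cell markers, 7 passed and 2 were at least 2-fold higher, with a summed signal of 1296 against 1034.

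Basophils, mast cells and eosinophils also carry CD48 and CD244. Of 11 markers of these cells, 3 passed and 1, Ccr3, was at least 2-fold higher, with a summed signal of 745 against 566. Ccr3 was under the median on the array labelled wild type and came to 1.19-fold with that value raised to it. Fcer1a, Ms4a2, Cpa3, Mcpt8 and Epx were under the median on both arrays. Megakaryocyte and platelet markers, named here because platelets carry CD84 and CD150, were at least 2-fold higher in 3 of 6 that passed, with a summed signal of 4814 against 2858. Of 7 stem and progenitor markers that passed, 1 was at least 2-fold higher, Mecom, and 6 had a difference below 0, with a summed signal of 1305 against 1326. The lowest probe set of Mecom differed by 0.13. Cd34 and Procr were under the median on both arrays. The summed signal was 928 against 1105 for 7 erythroid markers and 933 against 825 for 10 stromal and endothelial markers. Of the 2 erythroid markers that passed, 0 were at least 2-fold higher. Of the 6 stromal and endothelial markers that passed, 2 were.

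**Figure D4:**
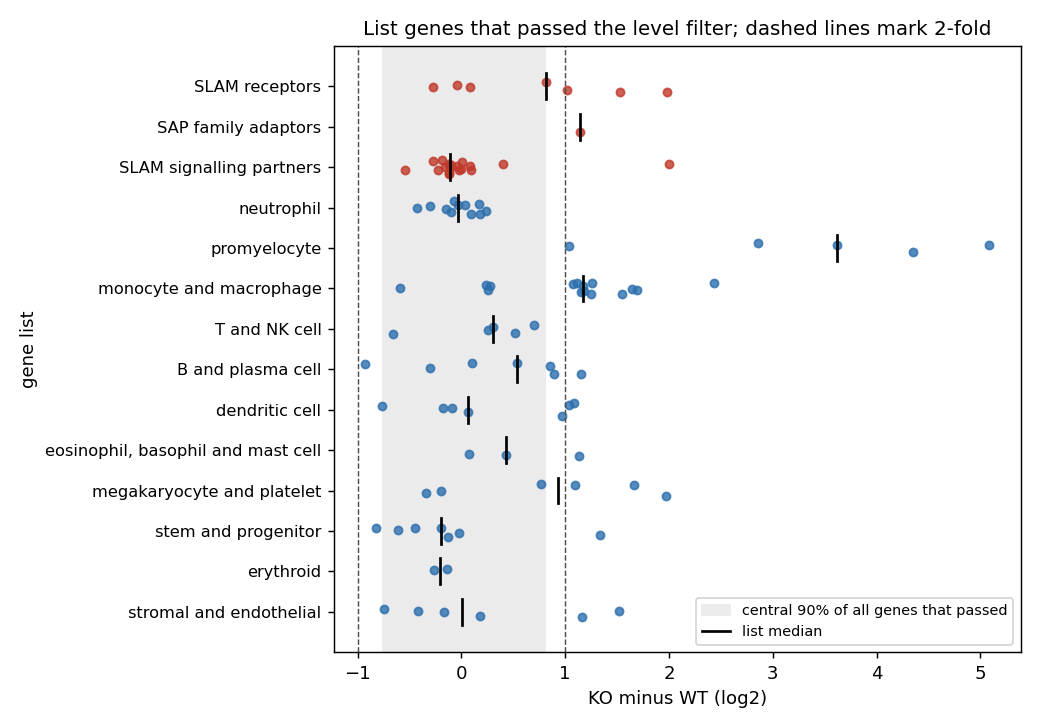
Difference between the arrays (log2) of each list gene that passed the level filter, with the receptors and their signalling genes in red, cell type markers in blue, black bars at list medians and the central 90% of all genes that passed in grey. The receptor list spreads from -0.28 to 1.98 around a median of 0.81, its signalling partners cluster near 0 apart from Fyn, and promyelocyte and monocyte and macrophage markers lie mostly beyond 2-fold. The receptors were chosen by the contrast that is drawn.

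Likeness to Cd48 and Slamf1 was measured as the distance between genes in log2 signal over both arrays. With 2 arrays it only finds genes of like level and like difference. The nearest to Cd48 was Adgre4, an adhesion receptor of the F4/80 family, at 7.55 and 5.63 and a distance of 0.10, followed by Cdh10 (0.12), Esyt3 (0.24), Trpm3 (0.30) and S100a10 (0.31). The nearest to the Slamf1 probe set was Nup43 at a distance of 0.01, followed by Zscan26 (0.06), Klhl41 (0.08), Dpp10 (0.08) and St6gal1 (0.08).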

How the data were processed

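The deposited values are log2 probe set summaries made with RMA by the authors, per the submitters' processing notes, with version and settings not given in the sources used here. RMA gives no detection call, and background in weak signals understates their fold. After sorting, both arrays' values agreed to within 0.117. Of 45037 probe sets other than 64 controls, 34945 had 1 gene symbol, 932 several (left unnamed) and 9160 none in the platform annotation. Symbols were updated by Entrez identifier against RefSeq (GRCm38.p6), which matched 34741. The files name no build, so coordinates belong only to RefSeq promoters.

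For each of 18193 genes the probe set of highest mean was used. It passed the level filter if its higher value reached that array's median. With 1 array per group there is no test, and genes were counted at 2-fold. Members, lists and naming rules were chosen with earlier results of these data known. Named were all members, Jdp2, the adaptors, chromosomal neighbours, and the 5 genes nearest to Cd48 and Slamf1. Of the list genes past 2-fold or largest in difference only some were named. An unnamed list gene may therefore have differed by more than a named one. Other genes were named after their values were seen. Python 3.11.15, numpy and statsmodels 0.14.6 (loess span 0.3) were used. The procedure was tested on simulated arrays. Alternatives were filters, scalings and probe set choices. Sequences came from RefSeq.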

Additional observations from a re-analysis of the deposited data

How the results depend on the processing

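The differences of Cd48 (1.86 to 2.004) and Cd244a (1.25 to 1.60) stayed past 2-fold under every alternative in which the gene passed the filter; Cd48 did not pass at the 75th percentile or with the filter on both values. That of Slamf1 lay between 1.003 and 1.02 under each other scaling, came to 0.25 when values under an array median were raised to it, an alternative chosen after seeing the data, and after averaging its probe sets Slamf1 no longer passed the level filter. The members at least 2-fold higher numbered 1 (Cd244a) with the level filter at the 75th percentile or on both values, where 2 and 4 members passed. Over all genes, those at least 2-fold higher and lower numbered 110 and 87 with the 75th percentile filter, 184 and 145 with the filter on both values, and 183 and 171 with probe sets averaged; 222 were higher with values raised to the median. The median difference of the members that passed was 0.08 without a filter, 0.45 with the filter on both values and 0.25 with raised values. No paired analysis was possible because each group had 1 array, and for the same reason no array could be left out. Signal near the array median limits Slamf1, Slamf6, Slamf8 and Slamf9 most.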
